A study of Rattus norvegicus with 20 samples.

Results

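Old versus old arteries 30 min after balloon injury were compared on 3 of the 20 arrays of the series, chosen by their titles and not by any measured value. Each array carried RNA of 2 iliac arteries of old Fisher rats, 1 labelled with Cy3 and 1 with Cy5, and its value for a probe is the log2 ratio between them. By the labels, both arteries of such an array came from rats of 22 months at 30 min, and the study's methods place the injury, made with an inflated balloon catheter, in the right iliac artery. The 3 arrays of young versus young arteries, from rats of 3 months at 30 min, are the closest comparison within the series. The labels do not say which of the paired arteries is the numerator or how they differ, although the study's headings for these arrays read as injured against control, so every direction is given only as above or below 0 in the ratio as deposited. Channel 1 held Cy3 on replicates 1 and 3 and Cy5 on replicate 2 of old versus old, so all values were also read with the Cy3 arrays turned in sign (turned by dye). Each replicate is an array, nothing in the labels says that replicates came from separate animals, and p-values therefore measure only the spread between arrays.

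Balloon inflation in an artery strips and stretches the inner wall. The endothelium, which makes nitric oxide and is coupled by gap junctions, is the layer that is touched first, smooth muscle cells of the media are stretched, and blood cells and platelets meet the exposed wall. In the first hour after tissue damage, immediate early genes such as Fos and Jun are transcribed without new protein synthesis, together with their feedback regulators and the first chemokines. A bulk artery sample holds all of these cells, and a lower share of a cell type cannot be told apart from less RNA per cell.

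Among the named probes of old versus old, Gja5 had the lowest mean. These probes had 1 symbol, the same sign on all 3 arrays and a 2-fold change with an unadjusted p under 0.01. Gja5 encodes connexin 40, a gap junction protein of arterial endothelium. Its log2 ratios were -2.72, -1.55 and -2.59 in the 3 old versus old arrays, against -0.95, -1.88 and -1.80 in the 3 young versus young arrays. All 6 values lay below 0, and the 2 groups overlapped. The old versus old mean was -2.29 ± 0.25 (SE of the fit, n = 3 arrays), a ratio of 4.89-fold, with an adjusted p of 0.130 over all 41010 probes and of 0.0456 over 16421 genes, each taken as the mean of its probes, where it was the 1 gene to pass (0.00609%). Nos3, the nitric oxide synthase of endothelium, had -1.83, -0.58 and -1.51 in old versus old arrays, against 0.19, -1.36 and -0.26 in young versus young arrays. It averaged -1.30 ± 0.30 in old versus old (adjusted p = 0.535).

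Below, single genes of a list are given as the mean of their probes with adjusted p-values over all genes, and the named probes with adjusted p-values over all probes. The start regions of both genes are shown because ETS factors are known regulators of endothelial genes. Each sequence runs from 250 bases before to 50 after the annotated start in RefSeq, build GRCr8, and the capitals mark the ETS core AGGAAG, searched on both strands. Gja5 lies at chr2:187290977-187291276 on the plus strand with 1 match 95 bases before the start, and Nos3 lies at chr4:11706532-11706831 on the minus strand with 1 match on the opposite strand, 54 bases before the start.
Gja5: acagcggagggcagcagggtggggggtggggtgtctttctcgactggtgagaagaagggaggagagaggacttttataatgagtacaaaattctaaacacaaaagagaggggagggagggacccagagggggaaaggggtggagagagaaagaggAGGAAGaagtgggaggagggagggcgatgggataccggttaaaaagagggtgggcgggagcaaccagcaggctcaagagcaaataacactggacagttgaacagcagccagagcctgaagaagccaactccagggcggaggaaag
Nos3: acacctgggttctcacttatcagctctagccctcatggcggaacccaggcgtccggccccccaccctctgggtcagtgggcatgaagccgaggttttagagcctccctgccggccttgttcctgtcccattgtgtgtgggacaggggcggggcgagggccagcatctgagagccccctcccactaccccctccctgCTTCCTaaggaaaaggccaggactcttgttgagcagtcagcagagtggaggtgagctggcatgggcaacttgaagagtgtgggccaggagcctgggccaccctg
Of 33469 RefSeq promoters of this length, 34.5% hold the same letters. Of the 20 endothelial markers measured, 12 had a promoter in the table and 8 of these held the core (Egfl7, Emcn, Eng, Flt1, Gja5, Nos3, Robo4 and Tie1). A match describes the letters only.

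Across the genome, no probe passed an adjusted p under 0.05 in limma, while 2225 of 41010 (5.43%) had an unadjusted p under 0.05, near the 2050.5 expected if no probe differed from 0. The thresholds of the study ask for a 2-fold change beside a p under 0.05 without adjustment, and 216 probes met them in this fit (0.527%), 113 above (0.276%) and 103 below 0 (0.251%). Of these, 139 carried 1 gene symbol, 80 above and 59 below 0. The authors' own list for old arteries, from their own processing and test, is longer, with 987 entries found among the probes used here. Young versus young arteries gave 369 probes at the same thresholds (0.9%), also with 0 at an adjusted p under 0.05 and 3585 at an unadjusted p under 0.05 (8.74%). With the Cy3 arrays turned in sign, old versus old gave 151 probes (0.368%), 63 above and 88 below 0. The methods' t-test, which uses each probe's own spread, called 49 probes of old versus old at the study's thresholds.

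Most of the probes called in old versus old had the same sign in young versus young. The young versus young mean had the sign of the old versus old mean for 187 of the 216 called probes (86.6%), compared with 62.5% of all probes, and all 3 young versus young arrays shared that sign for 117 (54.2%), compared with 21.4% of all probes. At the study's thresholds, 68 of the 216 (31.5%) were also called in young versus young, in every case in the same direction. Of all probes, 0.753% were called in young versus young with the sign of the old versus old mean. Both calls come from 1 fit with a common spread for each probe, which favours probes of small spread in both groups. The means of the 2 groups correlated across probes with r = 0.375 (41010 probes, which are not independent). The arrays of the 2 ages share no samples by their labels, but the probes are common to both. The dye layout was opposite, with Cy3 in channel 1 on replicates 1 and 3 of old versus old but on replicate 2 of young versus young. The part of the dye in this agreement was not tested.

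**Figure D1:**
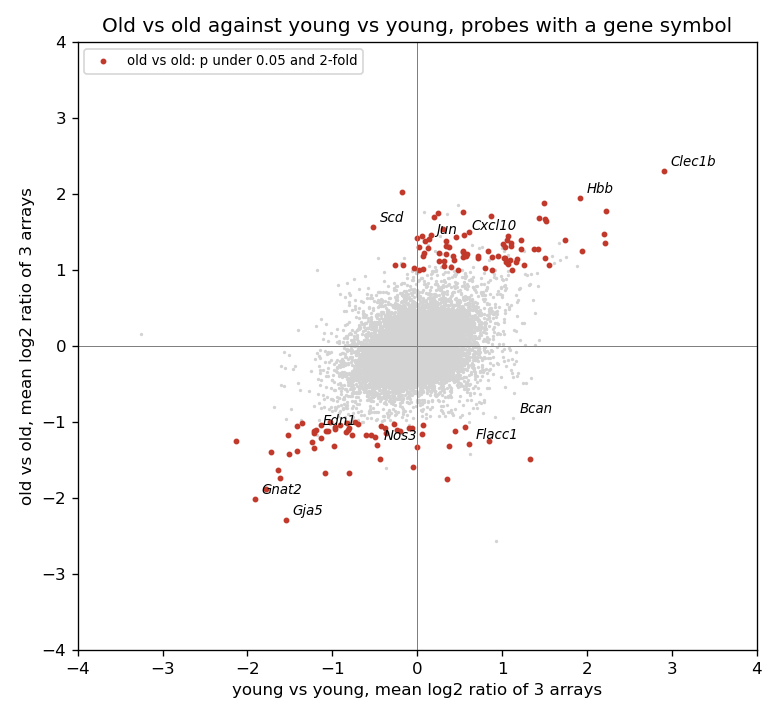
Mean log2 ratio of 3 old versus old arrays (y axis) against that of 3 young versus young arrays (x axis) for each of the 21394 probes with a gene symbol, in grey, with the 139 called in old versus old at an unadjusted p under 0.05 and 2-fold in red. Most red points lie in the upper right and lower left (124 of 139 have the same sign in both means), while Scd and Flacc1 do not. Bcan, labelled too, was not called in old versus old.

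Among the highest named probes of old versus old, genes of blood cells stood first. Clec1b, the platelet receptor CLEC-2, had log2 ratios of 1.30, 1.99 and 3.62 in old versus old arrays, against 2.07, 2.95 and 3.71 in young versus young arrays. Its old versus old mean was 2.30 ± 0.63 (adjusted p = 0.731). Hbb, a beta chain of haemoglobin, had 1.47, 1.62 and 2.74 in old versus old arrays, against 1.04, 2.10 and 2.62 in young versus young arrays, with an old versus old mean of 1.95 ± 0.32 (adjusted p = 0.344). Both genes were above 0 on all 6 arrays, and the groups overlapped in each case. Slc4a1, the anion exchanger of the red cell membrane, had 0.75, 1.54 and 2.84 in old versus old arrays at its named probe, against 0.65, 0.66 and 1.30 in young versus young arrays. A second probe of Slc4a1 averaged -0.17 in old versus old. Car2, a carbonic anhydrase abundant in red cells, averaged 1.69 ± 0.46 in old versus old and 1.43 in young versus young.

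The neutrophil proteins S100a8 and S100a9, which pair as calprotectin, were also among the 10 highest named probes. S100a9 had 0.29, 2.10 and 2.65 in old versus old arrays, against 1.97, 1.78 and 0.76 in young versus young arrays. One probe of S100a8 averaged 1.88 ± 0.51 in old versus old, but its 2 other probes averaged 0.11 and 0.08, so that the probes of this gene disagree. The list of 10 was completed by Ceacam4 (old versus old mean 1.78), by the lipoxygenase Alox15b (1.65), by the fatty acid desaturase Scd (1.58) and by Cxcl10 (1.46), and the adjusted p-values of the 10 ran from 0.344 to 0.786. A second probe of Ceacam4 averaged 0.65 in old versus old. Of the 10 named probes, 9 were above 0 on all 3 young versus young arrays too.

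Below 0, Gja5 was followed by Gnat2, Cyp26b1 and Nkx6-1. Gnat2, a transducin subunit of cone photoreceptors, had -2.59, -1.59 and -1.85 in old versus old arrays, against -2.13, -1.51 and -2.09 in young versus young arrays. Its mean was -2.01 ± 0.26 in old versus old (adjusted p = 0.205), nearly the mean of -1.91 in young versus young. Cyp26b1, which degrades retinoic acid, averaged -1.88 ± 0.35 in old versus old and -1.78 in young versus young. Nkx6-1, a homeobox factor of pancreatic beta cells, averaged -1.73 ± 0.36 in old versus old and -1.62 in young versus young, and Ptprr, a phosphatase that acts on MAP kinases, -1.63 ± 0.36 and -1.64 in the same order of groups. Adss2, an enzyme of AMP synthesis, rested on 1 array, with -3.44, -0.35 and -0.67 in old versus old arrays, against -0.08, -0.95 and -0.27 in young versus young arrays. Further probes of 3 of these genes lay nearer to 0 in old versus old, at -0.30 for Gnat2, 0.20 for Ptprr, and -0.34 and -0.11 for Adss2, so that the probes of these genes disagree as well. Pkhd1l1, Nsg1, Gpsm2 and 6330403K07Rikl completed the 10, with old versus old means of -1.67, -1.66, -1.40 and -1.38. All 10 had the same sign on all 3 young versus young arrays, and 8 of them passed the study's thresholds there, as did 0.9% of all probes. All 20 means, above and below 0, changed sign when the Cy3 arrays were turned, as is usual for like values on 3 arrays of which 2 are turned.

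**Figure D2:**
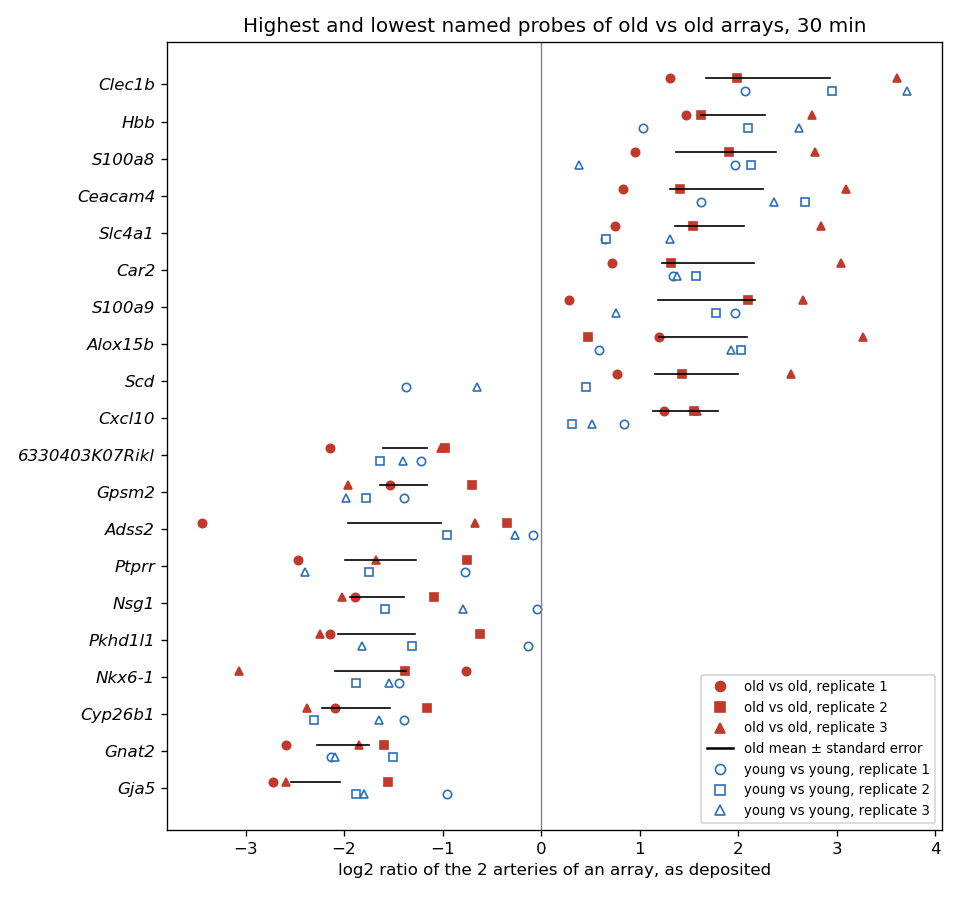
Log2 ratio as deposited (x axis) on each array for the 10 highest and 10 lowest named probes of old versus old (rows), with filled red symbols for the 3 old versus old arrays, open blue symbols for the 3 young versus young arrays and a black bar for the old versus old mean ± SE of the fit. That SE comes from the fit of 9 arrays and does not measure the spread of the 3 red symbols. Scd is the exception among the 20 rows in which a young versus young array lies on the other side of 0.

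The immediate early transcription factors did not move as 1 group. Of 25 measured, 17 were above and 8 below 0 in old versus old, with a median of 0.17 against -0.04 in young versus young, while the median over all 16421 genes was 0.00 in old versus old and 0.03 in young versus young. An unadjusted p under 0.05 was reached by 2 above and 2 below 0, where 2.7% of all genes reached it above and 2.87% below 0. Jun, a subunit of AP-1, had 0.66, 1.77 and 1.79 in old versus old arrays, against -0.73, 0.28 and 0.88 in young versus young arrays, with an old versus old mean of 1.41 ± 0.32 (adjusted p = 0.508). Its partner Fos had 0.58, 1.31 and 0.44 in old versus old arrays, against -0.01, 0.23 and 1.74 in young versus young arrays. The nuclear receptors Nr4a1 and Nr4a2, usually induced with them, were below 0 on all arrays of both ages, and Nr4a2 averaged -1.12 ± 0.24 in old versus old and -1.05 in young versus young. Egr1, named after its values were seen because it is a classical member, had -1.26, 1.31 and -0.07 in old versus old arrays. Its sign followed the dye of channel 1 on those arrays. Turned by dye, 15 of the 25 genes were above and 10 below 0, and without replicate 1 the unadjusted threshold was reached by 5 above and 1 below 0. Without replicate 3, 13 of the 25 were above and 12 below 0. In these fits with 1 old versus old array left out, the threshold was reached above 0 by 2.83% of all genes without replicate 1, 4.52% without replicate 2 and 1.18% without replicate 3, and below 0 by 3.89%, 4.57% and 1.28% of all genes in the same order.

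Feedback regulators of MAP kinase signalling and of mRNA decay were measured for 19 genes, of which 11 were above and 8 below 0 as deposited, and 5 above and 14 below 0 with the Cy3 arrays turned. Zfp36, which encodes tristetraprolin, a protein that speeds the decay of cytokine mRNA, had 1.35, 1.01 and 1.77 in old versus old arrays, against -0.21, 0.58 and -0.08 in young versus young arrays. The groups did not overlap, which held for 5.13% of all genes, and the difference of 1.28 ± 0.37 had an adjusted p of 1.00. Dusp6, a phosphatase of ERK, had 0.70, 0.62 and 1.31 in old versus old arrays, against -0.74, 0.40 and 0.17 in young versus young arrays. The groups did not overlap for this gene either. Genes named from a list are those lowest in p in old versus old, a choice that favours such separation. The share over all genes, which were not so chosen, is therefore no like comparison, here or for the genes below. Spred1, an inhibitor of RAS signalling, averaged -0.63 ± 0.25 in old versus old and 0.04 in young versus young, and Zfp36l1, a relative of Zfp36, averaged 0.48 ± 0.20 and -0.13 in the same order of groups.

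Of 22 inflammatory cytokines and chemokines, 19 were above and 3 below 0 in old versus old, with a median of 0.52 against 0.21 in young versus young. An unadjusted p under 0.05 was reached by 5, all above 0, where 2.7% of all genes reached it above 0. Cxcl10, which attracts T cells and is induced by interferon, had 1.25, 1.55 and 1.58 in old versus old arrays, against 0.84, 0.31 and 0.52 in young versus young arrays, and the groups did not overlap. Ccl4, a chemokine that attracts monocytes, had 0.43, 0.59 and 1.00 in old versus old arrays, against 0.27, 0.27 and 0.39 in young versus young arrays. Ccl3 averaged 0.99 ± 0.24 in old versus old and 0.22 in young versus young, and Ccl5 1.31 ± 0.35 and 1.03 in the same order of groups. Without old versus old replicate 3 the median of the list was 0.24. Without replicate 1 the genes at an unadjusted p under 0.05 numbered 8, where 2.83% of all genes reached it above 0. With the Cy3 arrays turned in sign, 4 were above and 18 below 0.

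The interferon response held more genes above than below 0 in both readings. Of 18 genes, 14 were above and 4 below 0 as deposited, with a median of 0.28 against 0.09 in young versus young, and 12 were above and 6 below 0 with the Cy3 arrays turned. Isg15, a ubiquitin-like protein, had 0.48, 2.09 and 0.99 in old versus old arrays, against 0.53, 1.30 and 1.01 in young versus young arrays. Irf7, the factor that amplifies interferon genes, had 0.62, 1.61 and 1.16 in old versus old arrays, against 0.65, 0.83 and 1.80 in young versus young arrays. Oas1a, an antiviral 2'-5'-oligoadenylate synthetase, had 0.27, 1.28 and 1.05 in old versus old arrays, against 0.60, 0.93 and 0.38 in young versus young arrays. These 3 genes were above 0 on all 6 arrays, and old versus old replicate 2 was the highest of its group for each of them. Mx2, a GTPase of the same response, averaged 0.74 ± 0.23 in old versus old and -0.04 in young versus young.

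The promoters of Irf7 and Oas1a are shown because the interferon-stimulated response element, searched as GAAA, any 2 bases and GAAA, is the sequence that interferon factors bind. The capitals mark its matches on either strand, overlapping ones included. Irf7 lies at chr1:205799974-205800273 on the minus strand of GRCr8 with 1 match, 69 bases before the start on the opposite strand, and Oas1a at chr12:41330216-41330515 on the plus strand with 2 overlapping matches, the first 41 bases before the start.
Irf7: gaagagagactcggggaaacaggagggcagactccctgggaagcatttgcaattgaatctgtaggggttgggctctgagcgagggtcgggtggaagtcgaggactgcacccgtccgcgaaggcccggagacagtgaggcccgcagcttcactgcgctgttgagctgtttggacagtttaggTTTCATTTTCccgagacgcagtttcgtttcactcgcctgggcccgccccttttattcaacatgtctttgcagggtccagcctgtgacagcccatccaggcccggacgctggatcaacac
Oas1a: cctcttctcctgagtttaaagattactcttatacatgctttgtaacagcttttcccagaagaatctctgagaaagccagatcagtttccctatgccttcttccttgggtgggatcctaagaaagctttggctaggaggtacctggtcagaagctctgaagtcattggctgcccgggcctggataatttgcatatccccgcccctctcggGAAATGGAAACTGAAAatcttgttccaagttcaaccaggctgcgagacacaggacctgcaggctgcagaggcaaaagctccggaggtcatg
The letters occur in 3.92% of the 33469 promoters, and in 8 of the 13 interferon genes of the list that had a promoter in the table (Gbp2, Ifi44, Ifih1, Ifit3, Irf7, Oas1a, Oas1b and Rsad2). The genes of this list were chosen as interferon genes, so the share describes the list and not these arrays.

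Markers of blood cells were above 0 for nearly all genes of their lists. All 11 neutrophil markers were above 0 in old versus old, with a median of 0.33 against 0.18 in young versus young, and 5 reached an unadjusted p under 0.05. The share of all genes that reached it above 0 was 2.7%, which applies to the erythroid genes as well. Ncf4, a subunit of the phagocyte oxidase, had 0.46, 0.49 and 0.73 in old versus old arrays, against 0.86, 0.44 and 0.64 in young versus young arrays. Lcn2, the iron-binding lipocalin of neutrophils, had 0.73, 0.46 and 0.07 in old versus old arrays, against -0.28, -0.11 and -0.09 in young versus young arrays, and Camp, an antimicrobial peptide, averaged 0.74 ± 0.26 and 0.69 in the same order of groups. All 5 erythroid genes were above 0 in old versus old, with a median of 0.77 against 0.52, and 3 reached an unadjusted p under 0.05 (Hbb, Slc4a1 and Alas2, the first enzyme of haem synthesis in red cells, with 1.11 ± 0.35). Of 15 genes of platelets and coagulation, 13 were above 0, and the platelet chemokine Pf4 had 0.72, 1.12 and 2.22 in old versus old arrays, against 1.69, 2.07 and 2.88 in young versus young arrays. Macrophage markers were above 0 for 14 of 15 genes, with a median of 0.24, and lymphocyte markers for 13 of 14, with a median of 0.25.

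On each old versus old array the erythroid median differed, with 0.26 on replicate 1, 0.82 on replicate 2 and 1.49 on replicate 3, and the cytokine median was 0.09, 0.56 and 1.01 on the same arrays. The part of blood cell RNA in the cytokine values was not tested. With the Cy3 arrays turned in sign, 0 of the 11 neutrophil markers, 1 of the 5 erythroid genes, 5 of the 15 genes of platelets and coagulation, 4 of the 15 macrophage and 3 of the 14 lymphocyte markers were above 0. Without old versus old replicate 3, an unadjusted p under 0.05 was reached by 2 neutrophil markers, 1 erythroid gene and 0 genes of platelets and coagulation, and without replicate 2 by 3 neutrophil markers. The shares of all genes that reached it above 0 were 1.18% without replicate 3 and 4.52% without replicate 2. The direction counts without replicate 3 were 8 of 11 neutrophil markers, 4 of 5 erythroid genes and 8 of 15 genes of platelets and coagulation above 0, the last with a median of 0.01 in place of 0.23.

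Leukocyte adhesion genes gave 8 of 10 above 0. An unadjusted p under 0.05, which 2.7% of all genes reached above 0, was reached by 2. These were Itgam and Itgb2, which together form the integrin Mac-1 of neutrophils and monocytes. Itgam had 1.51, 0.76 and 0.44 in old versus old arrays, against -0.33, 0.57 and -0.05 in young versus young arrays, and Itgb2 averaged 1.18 ± 0.39 in old versus old and 0.72 in young versus young. All 18 genes of complement and antigen presentation were above 0 in old versus old and 16 of 18 in young versus young, with medians of 0.17 and 0.21, and 4 reached an unadjusted p under 0.05 in old versus old. C3, the central complement protein, had 1.19, 0.57 and 0.94 in old versus old arrays, against 0.82, 1.10 and 0.36 in young versus young arrays. C4a averaged 0.58 ± 0.15 in old versus old and 0.19 in young versus young, the receptor C5ar1 0.93 ± 0.28 and 0.12, and Cfb, of the alternative pathway, 0.59 ± 0.20 and 0.03, each in the same order of groups. Turned by dye, 5 of the 18 complement and antigen presentation genes and 5 of the 10 adhesion genes were above 0. Without replicate 3, 2 rather than 4 of the 18 reached an unadjusted p under 0.05, where 1.18% of all genes reached it above 0. In that fit, 4 of the 10 adhesion genes were above and 6 below 0, with a median of -0.01 in place of 0.11.

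**Figure D3:**
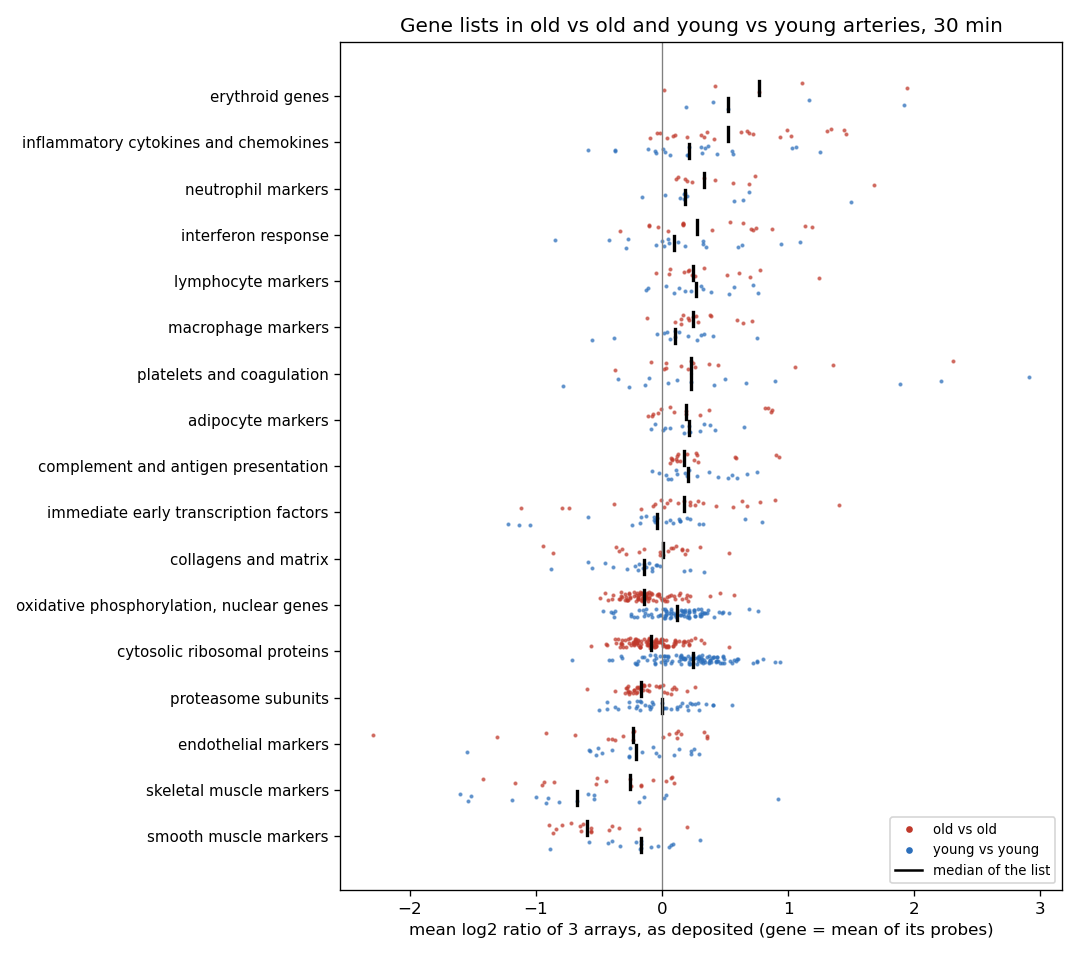
Mean log2 ratio of 3 arrays (x axis) for each measured gene of 17 lists (rows), in red for old versus old and in blue for young versus young, with a black tick at the median of the list. Blood cell and cytokine lists lie above 0 in both, while the smooth muscle median is -0.60 in old versus old and -0.16 in young versus young.

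Smooth muscle markers were below 0 for 15 of 16 genes in old versus old, with a median of -0.60, and for 12 of 16 in young versus young, with a median of -0.16. An unadjusted p under 0.05 was reached by 6, all below 0, where 2.87% of all genes reached it below 0. Myocd, the coactivator that switches on contractile genes, had -0.26, -0.56 and -1.69 in old versus old arrays, against -0.18, -0.33 and -0.48 in young versus young arrays. The contractile proteins Tpm2 (tropomyosin), Actg2 (smooth muscle actin) and Cald1 (caldesmon) averaged -0.87 ± 0.26, -0.72 ± 0.24 and -0.63 ± 0.21 in old versus old. Actg2 had -0.18, -0.70 and -1.29 in old versus old arrays, against 0.44, 0.36 and 0.11 in young versus young arrays, so that the groups lay on opposite sides of 0. The difference of -1.02 ± 0.33 had an adjusted p of 1.00.

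The smooth muscle list differed more between the old versus old arrays than between ages. Its median was 0.16 on replicate 1, -0.69 on replicate 2 and -1.29 on replicate 3, and its median over genes was -0.21 without replicate 3, where 1 gene reached an unadjusted p under 0.05, -1.02 without replicate 1, where 14 did, and -0.50 without replicate 2, where 4 did. The shares of all genes that reached it below 0 in these 3 fits were 1.28%, 3.89% and 4.57% in the same order. With the Cy3 arrays turned in sign, 13 of 16 were above 0. Skeletal muscle markers, a sign of tissue next to the artery, had medians of -1.30, -0.19 and 0.47 on replicates 1, 2 and 3, so that the array lowest in smooth muscle was the highest in these, and they had 0.35, -1.43 and -1.14 on the young versus young arrays. Myl11, named after its values were seen as the widest of them, had -4.84, -1.23 and 2.58 in old versus old arrays. Ckm, the creatine kinase of muscle, had -2.79, -1.78 and 0.31 in old versus old arrays, against 0.02, -2.63 and -1.92 in young versus young arrays. The part of adjacent muscle in other values was not tested.

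**Figure D4:**
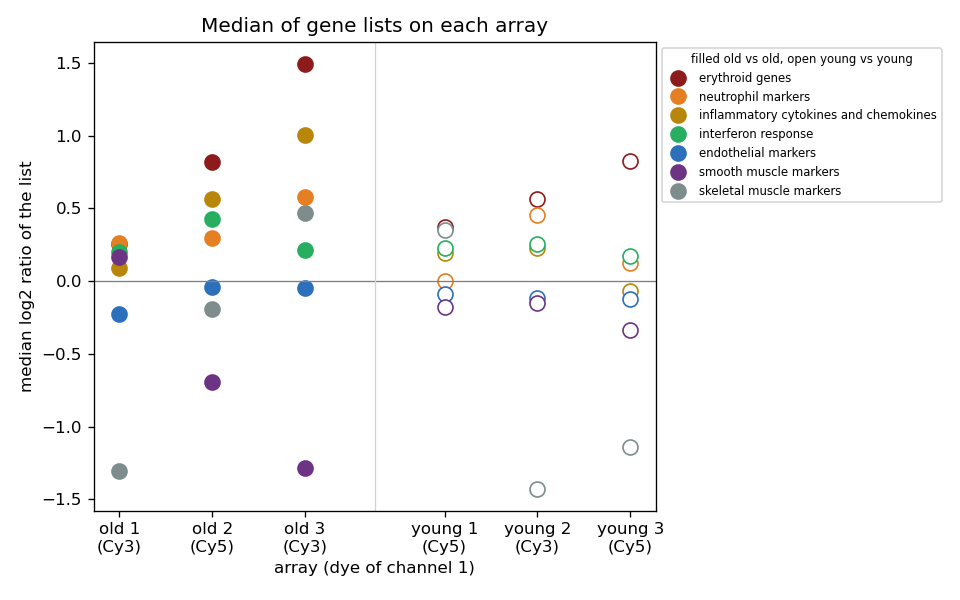
Median log2 ratio of the genes of 7 lists (y axis) on each of the 3 old versus old arrays (filled) and the 3 young versus young arrays (open), with the dye of channel 1 under each array (x axis). The smooth muscle median runs between 0.16 and -1.29 over the old versus old arrays, and the erythroid median is above 0 on all 6.

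Endothelial markers were divided, with 9 of 20 above and 11 below 0 in old versus old and a median of -0.23, against -0.20 in young versus young. Below 0, 5 reached an unadjusted p under 0.05, as did 2.87% of all genes. The 5 included Gja5, Nos3 and Esam, an adhesion molecule of endothelial junctions. Esam had -0.59, -0.48 and -1.67 in old versus old arrays, against 0.00, -0.66 and -0.52 in young versus young arrays. Kdr, the main VEGF receptor, was the 1 above 0, with a mean of 0.36 ± 0.13 in old versus old and -0.04 in young versus young. Cdh5, the cadherin that defines endothelial junctions, averaged 0.13 in old versus old and -0.07 in young versus young, and Pecam1 0.01 and 0.29 in the same order of groups, both named after their values were seen. Both of these transcripts stood nearer to 0 than Gja5 and Nos3 did. Turned by dye, 11 of the 20 were above and 9 below 0. The sign of the median rested on 1 array, since without replicate 1 there were 12 above and 8 below 0 with a median of 0.04, while without replicate 3 there were 5 above and 15 below 0.

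Of 18 genes of vasoactive peptides and nitric oxide, 11 were above and 7 below 0 in old versus old. Edn1, the precursor of the vasoconstrictor endothelin, had -1.62, -0.99 and -0.69 in old versus old arrays, against -0.97, -1.56 and -1.04 in young versus young arrays. All 6 values were below 0 and the old versus old mean was -1.10 ± 0.19 (adjusted p = 0.311). Ace, which makes angiotensin II, averaged -0.33 ± 0.13 in old versus old and -0.02 in young versus young, and its substrate precursor Agt 0.51 ± 0.22 and 0.54 in the same order of groups.

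Adipocyte markers, which would come from perivascular fat, were above 0 for 10 of 15 genes, 4 of them with an unadjusted p under 0.05. Of all genes, 2.7% reached it above 0. Cfd, Fabp4, Adipoq and Lpl averaged 0.82 ± 0.24, 0.87 ± 0.31, 0.84 ± 0.31 and 0.86 ± 0.34 in old versus old. Each was highest on replicate 3, and none of the 15 kept an unadjusted p under 0.05 without that array. In that fit 1.18% of all genes reached it above 0, also fewer than with all arrays. Collagens and matrix genes were evenly split, 11 above and 10 below 0. An unadjusted p under 0.05, which 2.87% of all genes reached below 0, was reached there by 2. These were Fn1 (fibronectin), with -0.35, -0.31 and -1.93 in old versus old arrays, against -0.65, -0.86 and -1.13 in young versus young arrays, and Bgn (biglycan), with -0.46, -0.20 and -2.17 in old versus old arrays, against -0.48, -0.77 and -0.51 in young versus young arrays. The even split of the list rested on all 3 arrays, with 7 above and 14 below 0 and a median of -0.22 without replicate 1, and 14 above and 7 below 0 and a median of 0.15 without replicate 3.

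Large housekeeping lists had medians near 0 that were not alike on the 3 old versus old arrays, and a difference of these lists between the ages was not tested. The median of 102 cytosolic ribosomal protein genes was -0.09 in old versus old and 0.25 in young versus young, and that of 82 nuclear genes of oxidative phosphorylation was -0.14 in old versus old and 0.12 in young versus young. Of 39 proteasome subunits, 30 were below 0 in old versus old and 19 in young versus young. Replicate 1 of old versus old was above 0 in all 3 lists, with medians of 0.09 for ribosomal proteins, 0.10 for oxidative phosphorylation and 0.09 for the proteasome. On young versus young replicates 1, 2 and 3 the medians were 0.01, 0.28 and 0.43 for ribosomal proteins. They were 0.06, 0.08 and 0.21 for oxidative phosphorylation, and -0.04, 0.08 and 0.04 for the proteasome. Replicates 2 and 3 of old versus old were below 0 in all 3 lists. With the Cy3 arrays turned in sign, the ribosomal median of old versus old was 0.01 and that of oxidative phosphorylation 0.00.

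The study's text names 12 genes from its arrays. Gja5, Ncf4, Rbm39 and Cadps2 were chosen on arrays that include these samples, so that their values are not independent evidence, and several of the others were named from comparisons by age in arteries without injury. Of the 12, Gja5, Ncf4 and Rbm39 reached an unadjusted p under 0.05 in old versus old, and Rbm39, a splicing factor, had -0.25, -0.34 and -0.49 in old versus old arrays, against -0.16, -0.28 and -0.27 in young versus young arrays. Myl9, the regulatory light chain of smooth muscle myosin, had 0.61, -1.03 and -1.28 in old versus old arrays, against 0.11, 0.36 and -0.26 in young versus young arrays, with an old versus old mean of -0.57 ± 0.31 (adjusted p = 0.874). Itga1, a subunit of a collagen receptor, averaged -0.53 ± 0.30 in old versus old. The other 7, Bcl2, Cadps2, Col1a1, Col3a1, Nox4, Vcam1 and Vegfa, averaged between -0.13 and 0.30.

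The difference between the ages was tested directly as old versus old minus young versus young. Channel 1 held Cy3 on replicates 1 and 3 of old versus old but only on replicate 2 of young versus young. Age is therefore partly confounded with dye in this contrast. No probe passed an adjusted p under 0.05, and 966 of 41010 (2.36%) had an unadjusted p under 0.05, fewer than the 2050.5 expected if no probe differed. The study's thresholds were passed by 280 (0.683%), 115 with the higher value in old versus old (0.28%) and 165 with the lower (0.402%). With a dye term in the fit 203 probes passed these thresholds, and 155 with the Cy3 arrays turned. Scd, which makes monounsaturated fatty acids, had 0.77, 1.43 and 2.53 in old versus old arrays, against -1.37, 0.46 and -0.65 in young versus young arrays, a difference of 2.10 ± 0.60. Tmem106a had 1.12, 0.81 and 0.99 in old versus old arrays, against -0.34, 0.25 and -1.08 in young versus young arrays, a difference of 1.37 ± 0.31. Btnl8, the sodium channel gene Scn7a and the proteoglycan gene Vcan were the other 3 of the 5 highest named, with differences of 2.19, 1.49 and 1.31. A second probe of Btnl8 differed by 0.00 and one of Vcan by 0.61.

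The 5 lowest named differences, among probes whose groups did not overlap, were those of Bcan (-2.07 ± 0.33), Flacc1 (-1.89 ± 0.38), the slow myosin heavy chain Myh7 (-1.85 ± 0.53), Fgfbp1 (-1.76 ± 0.43) and Zbtb33 (-1.76 ± 0.43). Bcan, a proteoglycan of brain matrix, had -0.80, -0.94 and -1.10 in old versus old arrays, against 0.56, 0.93 and 1.88 in young versus young arrays. The 2 other probes of Bcan differed by -0.26 and 0.02, with old versus old means of -0.13 and 0.02. Each of these 5 probes had on at least 2 of the 3 old versus old arrays a value that another probe of the array also had to the last digit. Such shared values made up 52.1% to 64.0% of the probes of an old versus old array. Of the 139 called probes with a symbol, 42.4% shared a value on at least 1 old versus old array, compared with 67.9% of all probes with a symbol. With every probe that shared a value on any of the 9 arrays left out, 7586 probes remained, and the difference then called 25 at the study's thresholds, 24 higher and 1 lower in old versus old.

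The old versus old arrays resembled each other little over all probes. As deposited, r was -0.20 between replicates 1 and 2, 0.17 between 1 and 3 and 0.16 between 2 and 3, and with the Cy3 arrays turned in sign it was 0.20, 0.17 and -0.16. Replicate 3 was closer to young versus young replicate 2, which had the same dye in channel 1, with r = 0.53. All 3 arrays had the same sign for 23.6% of probes as deposited and for 30.9% with the Cy3 arrays turned. Among the probes that averaged a 2-fold change, 222 of 293 had the same sign on all 3 arrays as deposited and 151 of 210 when turned. Read with that turn, the highest named probes were those of Top1, Dlg4, Myh6, Rundc3b and Uaca, with means of 1.61, 1.53, 1.49, 1.30 and 1.28. The lowest named were those of Rps2-ps36, Lrsam1, Irf2, Lrig3 and Cox7c, with means of -1.65, -1.58, -1.55, -1.42 and -1.33. All 10 had an adjusted p of 0.637 in that reading, and the other probes of Top1, Dlg4, Rundc3b, Uaca, Lrsam1 and Cox7c had turned means between -0.38 and 0.39.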

How the data were processed

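RNA of paired iliac arteries was hybridised to 2-colour Agilent Whole Rat Genome arrays. The authors scanned them with a GenePix scanner, extracted spots with GenePix Pro, normalised each array by Lowess in Acuity with criteria of spot quality, and name GeneSpring with RMA for group comparisons. The deposited values are log2 ratios with array medians near 0; the step that wrote them is not given in the sources used here, and signal intensities were not used, so the number of arrays limits the precision. In their supplementary list for old arteries the authors use the sign of the deposited values; their own fold changes were not used.

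Of the deposited probes, 41010 were used, 1 unnamed row was left out, 21394 had 1 gene symbol and 1 symbol was updated through RefSeq. The 9 arrays of 30 min were fitted with limma 3.58.1 in R 4.3.3, with 1 coefficient per group (6 residual and 4.11 prior degrees of freedom), old versus young arrays turned to a common direction by dye, and old versus old and young versus young arrays as deposited. P-values were adjusted by Benjamini-Hochberg over all probes, or over 16421 genes for gene lists. The methods' t-test, of each probe's mean against 0 without moderation, takes the place of the ANOVA that the authors used. The probes named had 1 symbol and the same sign on all arrays, and were the 10 highest and 10 lowest at an adjusted p under 0.05. In no direction did 10 pass, so the rule's second form, 2-fold with p under 0.01, was used (34 above and 44 below 0 met it). For the difference, where non-overlap of the groups replaced the sign, and for the turned reading, 5 and 5 were named. From a described list, at most 4 genes are named, those lowest in p. Genes that the study's text names are given too. Members, lists and tests were chosen with earlier results of these data known. The procedure was tested on simulated data. Alternatives covered dye, arrays in the fit, weights, scaling, the test, probe filters and leaving out each array.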

Additional observations from a re-analysis of the deposited data

Results flagged for a closer look

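A total of 7 named genes were marked because all 3 old versus old arrays lay on one side of 0 and all 3 young versus young arrays on the other. Bcan, Flacc1, Myh7 and Zbtb33 had been named because the groups did not overlap. Actg2, Zfp36l1 and Lcn2 had been named for a low p in old versus old. Both choices favour this pattern, and the share of all genes that have it was not counted. The 7 are therefore not evidence of a difference between the ages. The differences of these 7 genes, old versus old minus young versus young, were -2.07 for Bcan, -1.89 for Flacc1, -1.85 for Myh7, -1.76 for Zbtb33, -1.02 for Actg2, 0.61 for Zfp36l1 and 0.58 for Lcn2. None had an adjusted p under 0.05 in the limma test of the difference, where the probes of Bcan, Flacc1, Myh7 and Zbtb33 had an adjusted p of 1.00. The 2 other probes of Bcan differed by -0.26 and 0.02. With the Cy3 arrays turned in sign, the difference was 0.20 for Flacc1 and 0.41 for Myh7.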

How the results depend on the processing

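The 10 highest and 10 lowest named probes, 3 of the 10 named differences and 48 gene means changed sign when the Cy3 arrays were turned, so that all directions rest on the values as deposited. The turned log2 means of old versus old were, for the probes, Clec1b -0.98, Hbb -0.87, S100a8 -0.61, Ceacam4 -0.84, Slc4a1 -0.68, Car2 -0.81, S100a9 -0.28, Alox15b -1.33, Scd -0.62, Cxcl10 -0.43, Gja5 1.26, Gnat2 0.95, Cyp26b1 1.10, Nkx6-1 0.81, Pkhd1l1 1.26, Nsg1 0.94, Ptprr 1.13, Adss2 1.25, Gpsm2 0.93 and 6330403K07Rikl 0.73. The turned differences were Btnl8 -0.14, Flacc1 0.20 and Myh7 0.41. The turned gene means were, among those below 0, Jun -0.23, Zfp36 -0.70, Dusp6 -0.46, Zfp36l1 -0.23, Ccl4 -0.28, Ccl3 -0.34, Ccl5 -0.70, Oas1a -0.0166, Irf7 -0.0588, Ncf4 -0.23, Lcn2 -0.12, Camp -0.32, Alas2 -0.33, Slc4a1 -0.22, Pf4 -0.61, Itgam -0.40, Itgb2 -0.94, Kdr -0.18, Agt -0.0546, C3 -0.52, C4a -0.35, C5ar1 -0.65, Cfb -0.25, Cfd -0.30, Fabp4 -0.24, Adipoq -0.42, Lpl -0.51 and Col1a1 -0.29, and among those above 0, Nr4a2 0.71, Nr4a1 0.52, Spred1 0.00815, Myocd 0.46, Tpm2 0.33, Actg2 0.26, Cald1 0.40, Nos3 0.92, Esam 0.59, Edn1 0.44, Ace 0.26, Myh7 0.91, Ckm 0.23, Fn1 0.66, Bgn 0.81, Rbm39 0.13, Itga1 0.0887, Cadps2 0.14, Bcl2 0.14 and Vcam1 0.34. Among the other alternatives 5 gene means changed sign, Cadps2 to 0.115 without probes that share a value and 4 when 1 old versus old array was left out, where the ranges were -0.213 to 0.0495 for Bcl2 and -0.0246 to 0.320 for Vegfa (sign changed without replicate 3), -0.323 to 0.0623 for Vcam1 (without replicate 1) and -0.0320 to 0.239 for Col3a1 (without replicate 2).

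The count at an adjusted p under 0.05 in old versus old was 0, but 2 with 12 arrays of 30 min and healthy arteries, 3 with all 20 arrays, 4 with all 20 arrays and a dye term, 1 by the methods' t-test, 2 without probes that share a value and 1 over gene means. These were Gja5 in all but the t-test, Gnat2 in the fits of 20 arrays, 2 probes without a symbol, and by the t-test a probe of Fbln1 with a mean of 0.12. Over 25 alternatives the adjusted p of the Gja5 probe ran from 0.0105 to 1.00 and passed in 5. At the study's thresholds old versus old gave 216 probes, but 49 by the methods' t-test, 139 with a symbol, 75 without probes that share a value, 98 over gene means and 118 at a p under 0.01. Leaving out 1 array gave 203 to 642, with 541 without old versus old replicate 1 and 642 without replicate 2. The difference between the ages gave 280, but 155 with the Cy3 arrays turned, 104 by the methods' t-test, 144 with a symbol, 25 without probes that share a value, 93 over gene means and 92 at a p under 0.01. Leaving out 1 array gave 233 to 992, with 684 without old versus old replicate 2 and 992 without young versus young replicate 2. At an adjusted p under 0.05, leaving out 1 array gave 0 in both. The cause of these changes was not tested. After group means were taken off, same-numbered arrays correlated between -0.457 and 0.238, and arrays of other numbers between -0.379 and 0.435. This cannot tell whether the numbers pair the arrays, since same-numbered old versus old and young versus young arrays hold opposite dyes in channel 1. A replicate block gave 0 and 225 probes in old versus old and 0 and 260 in the difference. Leaving the old versus young arrays as deposited was a setting chosen after seeing the data. It gave 0 and 216 probes in old versus old and 0 and 266 in the difference. No named result changed its sign or its call at an adjusted p under 0.05 in that setting.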

Other observations

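Some lists not described above lay near the median of all genes in old versus old arrays as deposited. Of 17 heat shock genes, 7 were above and 10 below 0, with a median of -0.04 in old versus old and in young versus young. Of 20 genes of hypoxia and glycolysis, 8 were above and 12 below 0, and of 13 circadian clock genes, 3 were above and 10 below 0, with a median of -0.11 in both ages. Others stood further from it. Of 14 fibroblast and adventitial markers, 11 were above 0, with medians of 0.17 in old versus old and 0.08 in young versus young, and of 18 genes of calcium and potassium channels, 12 were below 0, with medians of -0.16 and -0.05 in the same order. The 8 feedback genes of NF-kappa-B gave 7 above 0, with medians of 0.29 in old versus old and 0.19 in young versus young, and 7 of 8 stayed above 0 with the Cy3 arrays turned.

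The deposited columns differ in how many digits they hold. The median was 8 digits on all 3 old versus old and all 3 young versus young arrays, whichever dye was in channel 1. In old versus young arrays it was 8 where channel 1 held Cy5 and 6 where it held Cy3.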
